A study of Mus musculus with 6 samples.

Results

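The regions described here are the accessible sites that lie 1 to 3 kb from a gene's transcription start. They are 5911 of the 70494 peaks in the authors' deposited table of all peaks. Its annotation places 3292 of them 1 to 2 kb and 2619 of them 2 to 3 kb from a start site. Both classes carry a promoter label there, whereas promoter peak here means a peak within 1 kb of a start site. Open chromatin was mapped by ATAC-seq, which uses a transposase that cuts and tags accessible DNA, in mouse definitive endoderm, the germ layer that gives rise to gut, liver and pancreas. The endoderm was differentiated from epiblast stem cells (EpiSCs) of 1 line, 7H OTX2-dTAG-EGFP, on a BL6/129 hybrid background. All libraries therefore carry OTX2, a homeodomain transcription factor, joined to EGFP and a tag for degradation. The cells received 40 ng/ml Activin A and 3 uM CHIR for 16 h, then 100 ng/ml Activin A and 100 nM LDN for 24 h. Both groups were treated for 24 h from the primitive streak stage, one with dTAG13, a small molecule that directs the tagged protein to the proteasome, and the other with its solvent, DMSO. Each of the 3 DMSO and 3 dTAG13 libraries was made from 50000 live sorted cells. By the series' design text, libraries of 1 group are technical replicates, and the standard errors below may hold only the spread between repeated libraries.

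A promoter is usually held open in most cells by the transcription machinery and by factors that bind GC-rich sequence. Sites a few kilobases away more often behave as enhancers, which open in particular cell types where sequence-specific factors bind. OTX2 is known for its roles in the epiblast, in anterior endoderm and mesendoderm, and in the forebrain, and OTX proteins recognise the letters GGATTA. The comparison of dTAG13 with DMSO asks which of these sites differ in accessibility once OTX2 has been depleted.

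The sequences of 7 peaks that were lower in dTAG13 are printed first, because the share of peaks holding the OTX consensus differed between lower and higher peaks. Each is the plus strand of RefSeq's GRCm38.p6 (the assembly also called mm10), limited to 300 bases, and capitals mark GGATTA or its reverse complement TAATCC. The peak at Mark2 holds neither and is shown for contrast. All the others hold the consensus, against 35.8% of the lower peaks as a whole, so the printed set is not representative. Of the 10 lower peaks with the smallest adjusted p, those at Hmgb1l, Gm38093, Gm11523 and Gm37776 also lack it and are not printed.
Syne3, chr12:105011365-105011664: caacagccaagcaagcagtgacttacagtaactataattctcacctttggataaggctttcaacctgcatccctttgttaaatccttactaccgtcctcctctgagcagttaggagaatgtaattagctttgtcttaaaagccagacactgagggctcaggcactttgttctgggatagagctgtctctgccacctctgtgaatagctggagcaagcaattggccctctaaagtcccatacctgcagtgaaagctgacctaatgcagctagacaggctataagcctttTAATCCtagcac
Moxd2, chr6:40888856-40889155: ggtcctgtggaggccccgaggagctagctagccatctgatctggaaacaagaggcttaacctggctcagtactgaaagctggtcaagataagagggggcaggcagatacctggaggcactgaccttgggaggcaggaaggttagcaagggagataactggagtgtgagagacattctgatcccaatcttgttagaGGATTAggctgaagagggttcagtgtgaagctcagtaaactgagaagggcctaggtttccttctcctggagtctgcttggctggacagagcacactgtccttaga
Fcgbp, chr7:28069754-28070053: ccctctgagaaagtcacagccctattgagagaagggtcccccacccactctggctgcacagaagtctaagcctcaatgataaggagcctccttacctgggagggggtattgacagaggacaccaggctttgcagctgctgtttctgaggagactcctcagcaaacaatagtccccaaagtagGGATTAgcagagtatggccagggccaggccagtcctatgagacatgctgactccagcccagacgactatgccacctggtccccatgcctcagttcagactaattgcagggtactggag
Lifr, chr15:7152181-7152428: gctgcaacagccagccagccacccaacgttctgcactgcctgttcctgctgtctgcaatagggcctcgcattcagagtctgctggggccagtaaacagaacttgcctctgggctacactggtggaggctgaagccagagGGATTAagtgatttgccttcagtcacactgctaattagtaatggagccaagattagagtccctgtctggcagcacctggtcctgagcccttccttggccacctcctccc
Krt18, chr15:102025103-102025390: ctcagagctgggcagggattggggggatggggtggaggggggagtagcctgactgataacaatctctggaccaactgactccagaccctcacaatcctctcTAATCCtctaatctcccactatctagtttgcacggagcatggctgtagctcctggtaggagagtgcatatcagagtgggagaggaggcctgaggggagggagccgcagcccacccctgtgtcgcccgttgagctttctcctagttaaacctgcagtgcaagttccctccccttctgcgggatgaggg
Rxra, chr2:27679164-27679352: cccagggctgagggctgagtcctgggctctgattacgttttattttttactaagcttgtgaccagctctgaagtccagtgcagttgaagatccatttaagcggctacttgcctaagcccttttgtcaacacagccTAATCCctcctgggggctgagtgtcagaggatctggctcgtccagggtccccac
Mark2, chr19:7293675-7293940: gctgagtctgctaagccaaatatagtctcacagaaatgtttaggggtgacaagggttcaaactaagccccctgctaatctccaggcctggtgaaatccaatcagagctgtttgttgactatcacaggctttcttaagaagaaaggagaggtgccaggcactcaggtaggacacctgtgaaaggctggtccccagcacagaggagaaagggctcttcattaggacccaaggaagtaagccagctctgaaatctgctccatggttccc

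For comparison, 3 peaks that were higher in dTAG13 follow, none of which holds the OTX consensus. Capitals mark an AP-1 consensus (TGANTCA, bound by FOS and JUN proteins), which occurs in the Itga8 peak only.
Itga8, chr2:12190793-12191002: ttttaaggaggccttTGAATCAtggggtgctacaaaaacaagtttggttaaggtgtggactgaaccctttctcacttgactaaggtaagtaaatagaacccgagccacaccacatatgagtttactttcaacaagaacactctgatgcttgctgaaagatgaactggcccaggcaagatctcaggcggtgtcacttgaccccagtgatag
Shroom3, chr5:92949541-92949730: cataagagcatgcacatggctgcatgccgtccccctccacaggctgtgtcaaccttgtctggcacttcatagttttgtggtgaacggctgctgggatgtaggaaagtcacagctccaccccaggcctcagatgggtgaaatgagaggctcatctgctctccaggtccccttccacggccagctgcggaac
Vegfc, chr8:54079277-54079420: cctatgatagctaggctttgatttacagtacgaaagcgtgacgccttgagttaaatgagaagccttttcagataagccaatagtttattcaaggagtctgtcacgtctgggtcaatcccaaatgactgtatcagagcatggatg

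The annotation largely matched GENCODE M21, a mouse gene set that need not be independent of the one the authors used. Of the 5911 peaks, 5697 were assigned to a gene whose symbol is in GENCODE M21, and 5527 of these (97.0%) lay between 1000 and 3000 bases from a start site of that gene, at a median of 1865 bases. Only 208 peaks (3.52%) came nearer than 1000 bases to any annotated start site. The peaks were split evenly between the sides of the start site, with 2760 upstream and 2767 downstream (49.9% upstream, Wilson 95% interval 48.6 to 51.3). They belonged to 5002 gene names, of which 4268 had 1 such peak and 734 had 2 or more, up to 6 at Gm21738 and at Plekha7. For 5 peaks the gene name is a whole number, and these names were not interpreted. By GENCODE M21, 53.4% of the peaks were in introns, 31.0% between genes and 15.6% touched an exon.

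The labelled cell type could be checked only through promoter accessibility, which does not measure expression. Of 40 listed definitive endoderm and anterior genes, 33 had a peak within 1 kb of a start site, as did 23 of 38 primitive streak and mesoderm genes, 16 of 23 pluripotency genes and 19 of 23 neural ectoderm genes. Open promoters thus did not single out endoderm in these libraries.

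The peaks 1 to 3 kb away were weak and short. Their signal is given here as the mean normalized count over the libraries, and its median was 6.81 in the authors' deposited table, against 15.8 for peaks within 1 kb and 5.69 for distal intergenic peaks. Median length was 113 bases, against 185 bases within 1 kb, and median GC content was 54.3%, against 64.6% within 1 kb and 51.5% in distal peaks. Of the 5911 peaks, 1960 (33.2%) had a mean normalized count below 5. The strongest was near the predicted gene Gm18604 (chr17:36231254-36231605), with a mean normalized count of 967 in the authors' deposited table, and it was not called (log2 fold change -0.05 ± 0.08, SE, adjusted p = 0.769). The second, at 775, was at Gm10800 and is described among the higher peaks. The third, at 256, lay in an exon region of Clec11a, which encodes a secreted growth factor, and the authors' deposited table did not call it (log2 fold change 0.15 ± 0.12, SE, adjusted p = 0.526).

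A peak was called where the adjusted p in the authors' deposited table, taken over all peaks, was below 0.05. The column names of that table are those of DESeq2, and each log2 fold change is dTAG13 over DMSO. Of the 5911 peaks 1 to 3 kb away, 5804 had an adjusted p, and 288 of these (4.96%, 4.43 to 5.55) were called, against 5.26% of all peaks. Peaks lower in dTAG13 numbered 218 (3.76%, 3.30 to 4.28), against 3.79% of all peaks. Peaks higher in dTAG13 numbered 70 (1.21%, 0.956 to 1.52), against 1.47% of all peaks. These shares were close to those of the whole table. Requiring also a log2 fold change of at least 1 in size, as in the authors' enriched lists, left 217 lower peaks, where the share over all peaks was 3.76%, and 63 higher peaks, where it was 1.28%.

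**Figure D1:**
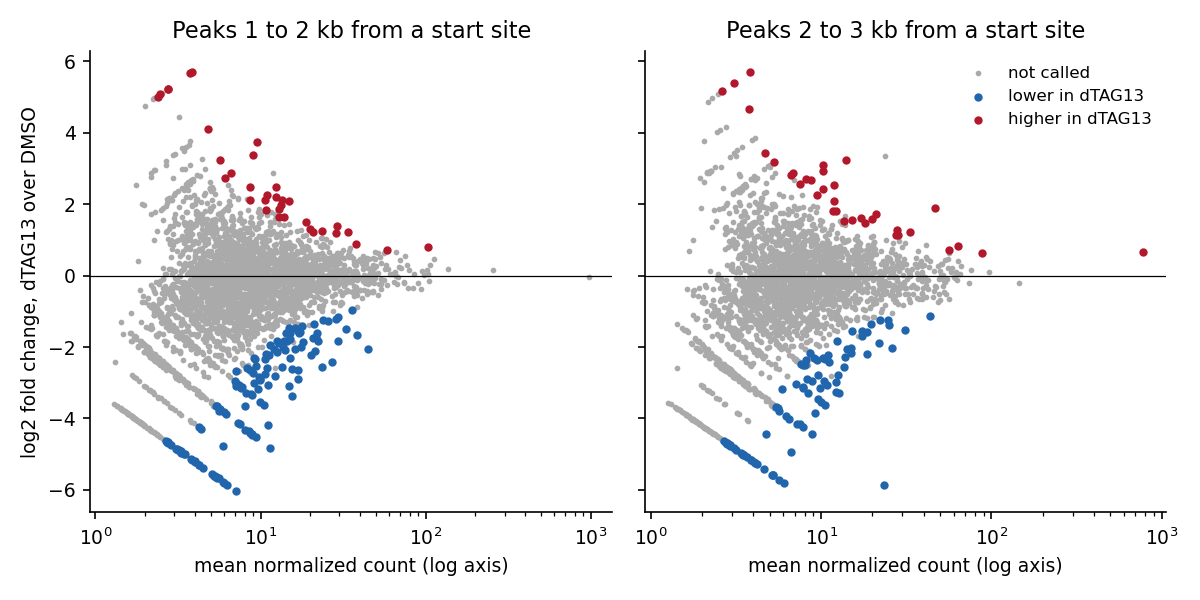
Mean normalized count (horizontal, log axis) against log2 fold change of dTAG13 over DMSO (vertical) for the 3292 peaks 1 to 2 kb and the 2619 peaks 2 to 3 kb from a start site. Each point is 1 peak. Blue points are the 218 peaks called lower, red points the 70 called higher, grey the rest. Lower and higher peaks both reach down to weak signal, and the strongest called peak, at 775, is higher in dTAG13.

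Most calls were lower in dTAG13, 75.7% of the 288 (70.4 to 80.3), but this split depended on where the fold change is set to 0. The median log2 fold change was -0.26 over the 5911 peaks and 0.08 over the 2503 of these found in the pooled peak lists of both groups. It was -0.18 over all peaks and 0.09 over all peaks found in both lists. With the median of all peaks moved to 0, 56.1% of the calls were lower (165 lower and 129 higher). With the median of the peaks in both lists moved to 0, 81.9% were lower (263 and 58). With the median of each of 10 groups of equal GC content moved to 0, a choice made after seeing the data, the majority turned and 39.1% were lower (125 and 195). The medians of the GC groups ran from -0.91 to 0.04, so GC content moved with the fold change in these libraries. Its part in the calls was not tested beyond this.

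By place, the calls at 1 to 3 kb stood between those of promoters and those of more distant sites. In the 1 to 2 kb class 130 of 3236 tested peaks were lower (4.02%, 3.39 to 4.75) and 35 were higher (1.08%, 0.779 to 1.50). In the 2 to 3 kb class 88 of 2568 were lower (3.43%, 2.79 to 4.20) and 35 were higher (1.36%, 0.982 to 1.89). The intervals of the 2 classes overlapped in both directions. Peaks within 1 kb were lower in 1.0% (0.878 to 1.14) and higher in 1.15% (1.01 to 1.30). Intronic peaks farther away were lower in 5.60% (5.27 to 5.95) and distal intergenic peaks in 5.11% (4.83 to 5.42). Median signal also differed between these places, as given above, and its part in the shares was not tested.

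**Figure D2:**
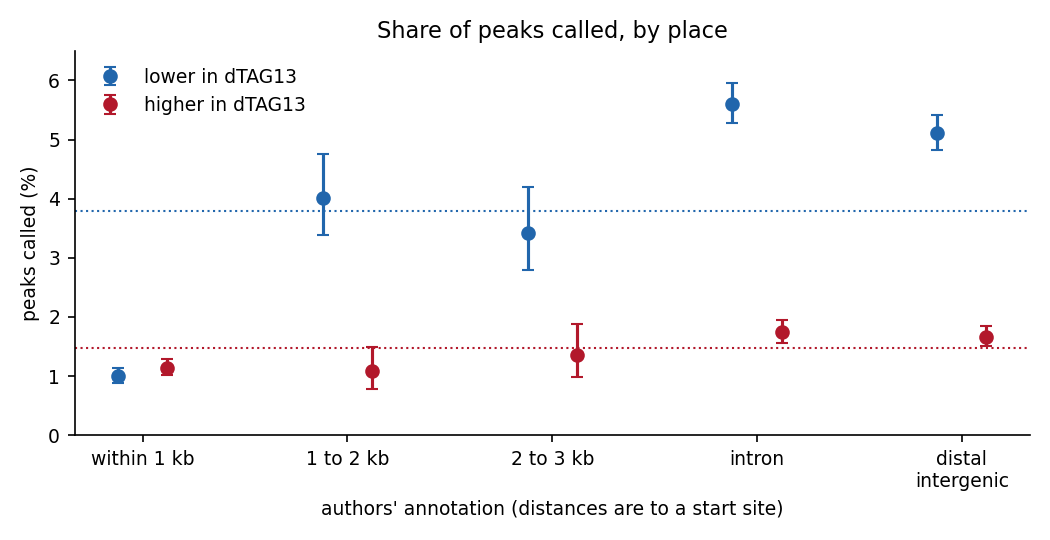
Percentage of tested peaks called lower (blue) or higher (red) in dTAG13 by the authors' annotation. Bars are Wilson 95% intervals, which cover counting error over peaks only, and dotted lines give the shares over all peaks (3.79% and 1.47%). The share of lower peaks is 1.0% within 1 kb, 4.02% at 1 to 2 kb and 3.43% at 2 to 3 kb, while the share of higher peaks lies between 1.08% and 1.74% in all 5 places.

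Shares on either side of the start site had overlapping intervals. Upstream, 115 of 2710 tested peaks were lower (4.24%, 3.55 to 5.07) and 33 higher, and downstream 91 of 2717 were lower (3.35%, 2.74 to 4.09) and 33 higher. In bins of 500 bases, the share of lower peaks ranged from 2.20% (1.31 to 3.65), downstream from 2000 bases, to 5.68% (4.32 to 7.43), upstream from 1000 bases. Peaks touching an exon were lower in 2.31% (1.51 to 3.5), intronic ones in 4.17% (3.52 to 4.93) and intergenic ones in 3.78% (2.99 to 4.76).

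Lower peaks were longer than uncalled ones and poorer in GC. Median length was 210 bases for lower, 181.5 for higher and 111 for uncalled peaks, and median GC content was 50.5%, 54.8% and 54.6%. The median mean count was 8.80, 12.1 and 6.82 in the same order. Among the 83 peaks with a mean above 50, none was lower (0%, up to 4.42%) and 6 were higher (7.23%, 3.36 to 14.9), whereas 83 of the 2128 peaks with a mean between 5 and 10 were lower (3.90%) and 14 higher (0.658%).

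The peak lists that the authors called on the pooled libraries of each group showed the same asymmetry as the fold changes. Of the 5911 peaks, 42.3% overlapped both lists by at least 1 base, 44.7% overlapped the DMSO list alone and 12.9% the dTAG13 list alone. Over all peaks these shares were 48.2%, 40.1% and 11.8%. Of the 218 lower peaks, 192 were in the DMSO list alone and 26 in both. Of the 70 higher peaks, 43 were in the dTAG13 list alone and 27 in both. The lists come from the same reads as the fold changes, and their sizes move with depth, which is not given per library.

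The lower peaks named here are the 10 with the smallest adjusted p. The deposited table gives 1 mean per peak, so each library's own level was not used here. Group levels were computed from that mean and the fold change as fitted normalized counts per library. The most significant lay 1403 bases upstream of Syne3, which encodes nesprin-3, a nuclear envelope protein that binds the cytoskeleton (chr12:105011212-105011664, intergenic). Its fitted level was 72.0 in DMSO and 17.4 in dTAG13, and the authors' deposited table gives a log2 fold change of -2.05 ± 0.31 (SE) at an adjusted p of 1.18e-07. The peak at 1183 bases upstream of Fcgbp, which encodes a mucin-like protein that binds IgG, fell from 58.4 to 18.6 (-1.65 ± 0.31 on the log2 scale, SE, and adjusted p = 9.34e-05 per the authors' deposited table). The printed sequences of both hold the OTX consensus.

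A peak 2790 bases upstream of Krt18, which encodes a keratin of simple epithelia, fell from a fitted 41.9 to 10.2 (chr15:102025103-102025390). In the authors' deposited table this was -2.03 ± 0.41 (SE) on the log2 scale at an adjusted p of 0.000242. Krt18's own promoter peak, 2686 bases away, stood at -0.08 ± 0.42 in the same deposited table (adjusted p = 0.941). A peak in an intron 1925 bases upstream of a start site of Lifr, the receptor for leukemia inhibitory factor, fell from 29.9 to 3.99 (-2.91 ± 0.58 on the log2 scale, SE, and adjusted p = 0.000234 per the authors' deposited table). At Moxd2, which encodes a monooxygenase-like protein, a peak 1353 bases upstream fell from 40.1 to 6.80. The consensus occurs once in the Krt18, Lifr and Moxd2 peaks.

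For a pair of the 10 peaks the fitted dTAG13 level was at or below 3 normalized counts per library, the floor used here, so the fold is a bound. The peak in an intron of Mark2, which encodes a kinase of cell polarity, was at least 9.38-fold lower in dTAG13 (28.1 fitted in DMSO). The peak in the predicted gene Gm38093 (chr1:185746890-185747394) was at least 15.3-fold lower (45.8 fitted in DMSO). The remaining peaks of the 10 were at Hmgb1l, Gm11523 and Gm37776. Of these, the Hmgb1l peak is 88.4% soft-masked, that is, marked as repeat in the reference, where reads can be hard to place. Over the 218 lower peaks, 139 had a fitted dTAG13 level at or below the floor, and their median log2 fold change, -3.16, became -1.95 when levels under the floor were set to it.

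**Figure D3:**
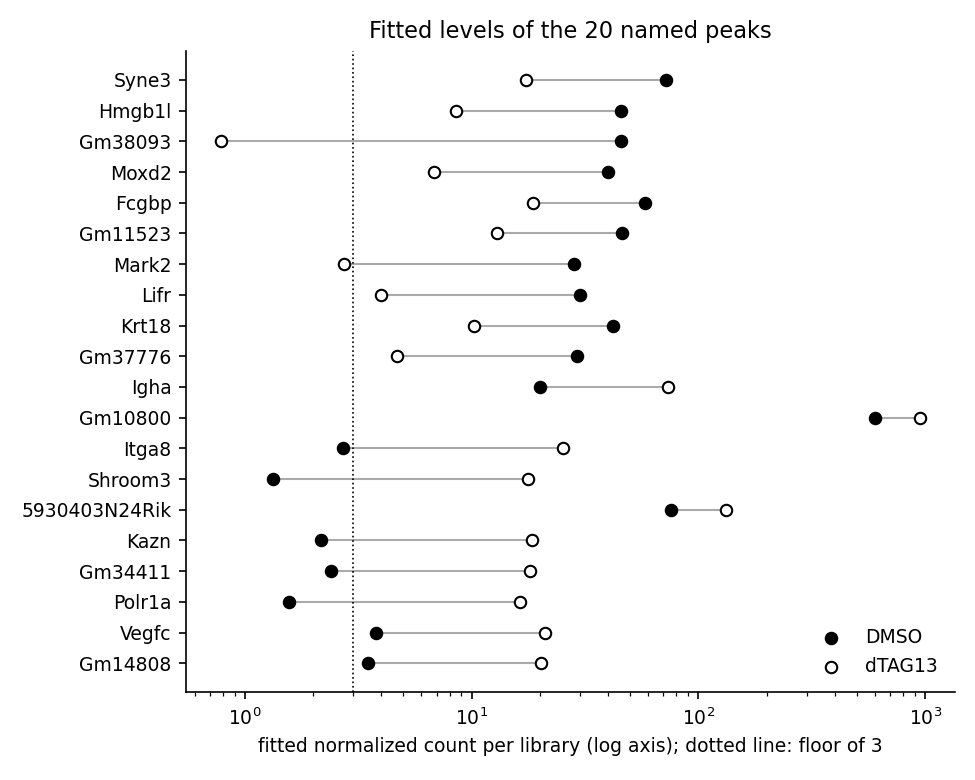
Fitted normalized count per library (horizontal, log axis) in DMSO (filled) and dTAG13 (open) for the 10 lower peaks (Syne3 to Gm37776) and the 10 higher peaks (Igha to Gm14808) with the smallest adjusted p. The dotted line is the floor of 3. There are no error bars because levels were computed from 1 mean and 1 fold change per peak. Of the higher peaks, 5 lie below the floor in DMSO, and the Gm10800 peak is far stronger than the rest.

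Higher peaks were fewer and included several with little signal in DMSO. The most significant lay 2324 bases upstream of Igha, the constant region gene of the IgA heavy chain (chr12:113262560-113263018), and rose from a fitted 19.9 to 73.7 (1.89 ± 0.29 on the log2 scale, SE, and adjusted p = 2.25e-07 per the authors' deposited table). It holds 4 matches to the TEAD consensus GGAATG. However, its sequence is built of repeated short units, and the 2 matches in a 300-base stretch of it have the same letters around them. Only 19.4% of the peak is soft-masked, but reads in such repeats can be hard to place. The Gm10800 peak (chr2:98665047-98665216) rose by 0.65 on the log2 scale (SE 0.10, adjusted p = 3.38e-07), from a fitted 602 to 947, per the authors' deposited table. Its sequence opens and closes with the same long run of letters, so reads may be hard to place there too. Only 11.2% of it is soft-masked. A stronger peak of the same gene, 1028 bases away with a mean of 4336, rose by 0.54. How reads with several placements in the genome were treated is not given in the sources used here.

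The other higher peaks lay mostly in introns. A peak in Itga8, which encodes an integrin subunit, was at least 8.46-fold higher in dTAG13 (25.4 fitted in dTAG13, with an adjusted p of 0.000129 per the authors' deposited table). A peak in Shroom3, which encodes an actin-binding protein of apical constriction, was at least 5.91-fold higher. One in Vegfc, which encodes a growth factor of lymphatic vessels, rose from a fitted 3.8 to 21.1 (2.47 ± 0.58 on the log2 scale, SE, and adjusted p = 0.00275 per the authors' deposited table). Bounds of at least 6.12-fold, 6.0-fold and 5.44-fold were found at Kazn, Gm34411 and Polr1a, the last encoding the largest subunit of RNA polymerase I. The Kazn peak is 81.1% soft-masked. A peak assigned to 5930403N24Rik, which rose by 0.80, overlaps a start site of that gene in GENCODE M21 and so is not 1 to 3 kb away by that annotation. The Gm14808 peak rose from 3.49 to 20.2.

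The OTX consensus was more frequent in lower peaks. GGATTA, on either strand, occurred inside 78 of the 218 lower peaks (35.8%, 29.7 to 42.3), in 1 of the 70 higher peaks (1.43%, 0.253 to 7.66) and in 6.15% (5.54 to 6.81) of the uncalled ones. The share in higher peaks depended on the zero point, at 4.65% with the median of all peaks moved to 0 and 7.69% with GC groups centred, where uncalled peaks held it in 6.28% and 6.44%. Under both of these alternatives the consensus was in 40% of lower peaks. Its letters reversed, ATTAGG, have the same composition, and occurred in 18.3% (13.8 to 24.0), 5.71% and 5.28%. They share ATTA with the consensus and can overlap it, as in the printed Moxd2 and Rxra peaks, so they are not a neutral control. Since lower peaks are longer, the count was repeated in 200 bases around each midpoint. There the consensus occurred in 32.6% of lower, 1.43% of higher and 8.10% of uncalled peaks, and the reversed letters in 17.0%, 8.57% and 7.34%. The share of lower peaks with the consensus over all peaks was 35.2%, so the sites 1 to 3 kb away did not stand apart from the table.

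Seen from the sequence, 18.7% (15.2 to 22.7) of the 418 tested peaks with the consensus were called lower, against 2.60% (2.21 to 3.06) of those without it. With 2 or more copies the share was 38.5% (24.9 to 54.1), or 15 of 39 peaks. The median log2 fold change was -1.21 over peaks with the consensus, -2.22 over those with 2 or more copies and -0.22 over those without it. Peaks with the reversed letters, which can overlap the consensus, were called lower in 11.9% (8.89 to 15.9). The corresponding shares over all peaks were 19.0%, 2.64%, 40.8% and 11.7%. A match is a description of the sequence and does not show that OTX2 was bound.

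**Figure D4:**
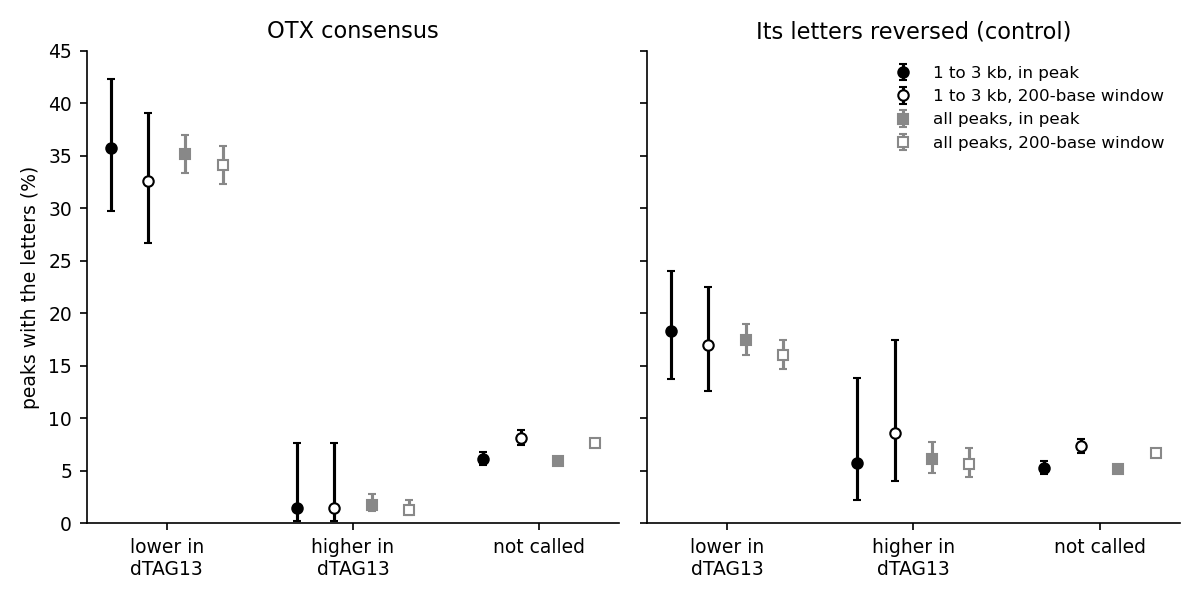
Percentage of peaks holding the OTX consensus (left) or its letters in reverse order (right), by call. Circles are the peaks 1 to 3 kb from a start site and squares all peaks, filled for matches inside the peak and open for a 200-base window. Bars are Wilson 95% intervals over peaks. The consensus is found in 35.8% of lower, 1.43% of higher and 6.15% of uncalled peaks 1 to 3 kb away, and the reversed letters in 18.3%, 5.71% and 5.28%.

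Other consensus letters also differed with the call, all searched on both strands inside the peak. AGATAA, bound by GATA factors that specify endoderm, occurred in 33.9% of lower, 17.1% of higher and 11.6% of uncalled peaks. ACAAAG, bound by SOX factors, occurred in 30.3%, 17.1% and 12.4%. The E-box CAGGTG occurred in 35.3%, 18.6% and 17.4%. TGTTTAC, bound by FOX factors, occurred in 11.9%, 14.3% and 4.37%, and CCAAT in 23.4%, 21.4% and 16.0%. GGGCGG, bound by SP and KLF factors, was rarer in lower peaks (8.72%) than in higher (12.9%) or uncalled ones (13.2%). Length is not removed from these shares. In the 200-base window the lower, higher and uncalled shares were 35.3%, 15.7% and 15.3% for AGATAA, and 28%, 17.1% and 17.6% for ACAAAG. They were 34.9%, 20% and 22.8% for CAGGTG, and 22.0%, 21.4% and 22.6% for CCAAT. The excess of higher over uncalled peaks was thus small or absent there for these letters. For TGTTTAC it remained, at 10.6%, 14.3% and 5.11% in the same order.

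Letters for AP-1, TEAD and T-box factors were also searched. Among peaks 1 to 3 kb away, only the AP-1 share in higher peaks had an interval above that of lower peaks. Over all peaks this was otherwise, as given below. The AP-1 consensus TGANTCA occurred in 18.6% (11.2 to 29.2) of higher, 6.88% (4.21 to 11.04) of lower and 4.84% (4.30 to 5.44) of uncalled peaks. In the 200-base window these shares were 18.6%, 5.50% (3.18 to 9.37) and 7.02% (6.37 to 7.72). The TEAD consensus occurred in 14 of the 70 higher peaks (12.3 to 30.8%), in 14.2% (10.2 to 19.5) of lower and in 8.90% of uncalled ones. In the 200-base window its shares in lower and uncalled peaks were 13.3% and 12.5% (11.7 to 13.4), with the higher peaks' count still 14. AGGTGTGA, bound by T-box factors, occurred in 7.14% (3.09 to 15.7) of higher, 1.83% (0.716 to 4.62) of lower and 1.43% of uncalled peaks. In the window it occurred in 5.71% (2.24 to 13.8), 1.83% and 1.70%. Among all peaks, higher ones held the letters for AP-1, TEAD and T-box factors in 9.15% (7.53 to 11.1), 24.0% (21.5 to 26.7) and 4.53% (3.41 to 5.99). Lower ones held them in 7.44% (6.49 to 8.50), 11.2% (10.1 to 12.5) and 1.95% (1.48 to 2.55). Over all peaks, therefore, the intervals were apart for TEAD and T-box factors and overlapped for AP-1. Over all peaks of the table, called or not, the shares were 7.07% for GGATTA, 5.67% for ATTAGG, 12.7% for AGATAA, 12.6% for ACAAAG, 17.6% for CAGGTG, 4.63% for TGTTTAC, 20.3% for CCAAT, 22.1% for GGGCGG, 4.59% for TGANTCA, 8.89% for GGAATG and 1.42% for AGGTGTGA.

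About as many called peaks had a promoter peak at their gene as had none, and few of those promoter peaks were called. Each called peak was set beside the strongest peak within 1 kb of a start site of the same gene, which can be an alternative start site far away, such as 110897 bases for Itga8. Such a promoter peak existed for 112 of the 218 lower peaks. The median log2 fold change, from the authors' deposited table, was -2.99 for these lower peaks and -0.02 for the promoter peaks, of which 97 lay between -1 and 1. Only 6 promoter peaks (5.36%, 2.48 to 11.2) were themselves lower and 0 were higher. For uncalled peaks, 32 of 2942 promoter peaks were lower (1.09%, 0.772 to 1.53). The promoter peaks were the stronger of the pair at 87 of the 112 pairs, with a median mean count of 21.4 against 9.18.

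Restricting to the 53 lower peaks within 5 kb of the promoter peak gave medians of -2.96 and -0.05, and all 6 lower promoter peaks were among them. For higher peaks, 33 of 70 had a promoter peak, with medians of 2.47 and 0.33, and 2 of the promoter peaks (6.06%, 1.68 to 19.6) were higher. For uncalled peaks, 37 of 2942 promoter peaks were higher (1.26%, 0.914 to 1.73). Fold changes of both peaks come from the same libraries.

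**Figure D5:**
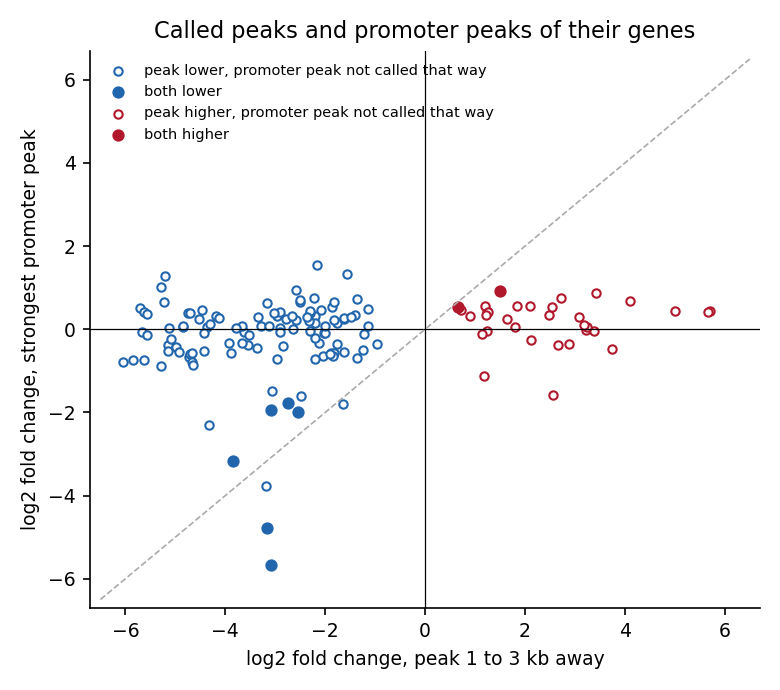
Log2 fold change of called peaks 1 to 3 kb from a start site (horizontal) against that of the strongest promoter peak of the same gene (vertical), for 112 lower (blue) and 33 higher (red) peaks. Filled points are pairs with both peaks called the same way, 6 lower and 2 higher, and the dashed line marks equal values. Most open points lie near 0 on the vertical axis.

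The 8 pairs called together were looked up after their values were seen. The lower ones were at Nctc1, Igfbp2, Dcun1d3, Cacna2d3, Gm11460 and Eva1a. The calls 1 to 3 kb away at Gm11460 and Eva1a were lost with the median of all peaks moved to 0 (adjusted p = 0.0543 and 0.0599) and with GC groups centred (adjusted p = 0.0760 and 0.0986). In an intron of Nctc1, a noncoding gene of the Igf2 locus, the peak (chr7:142557164-142557353) fell from a fitted 23.0 to 3.93 and the promoter peak from 21.9 to 5.51, or -2.55 ± 0.62 and -1.99 ± 0.56 (SE) on the log2 scale per the authors' deposited table. These 2 peaks are 391 bases apart. At Igfbp2, which encodes a protein that binds insulin-like growth factors, a peak 2125 bases upstream was at least 6.48-fold lower and the promoter peak fell from 23.8 to 6.16. The Cacna2d3 peak, in a gene for a calcium channel subunit, was at least 5.24-fold lower and the promoter peak fell from 22.0 to 6.48. The higher pairs were at Gm10800 and RP24-501J23.3. The Gm10800 peak holds the repeated letters described above, and the RP24-501J23.3 peak overlaps a start site of Klf12 in GENCODE M21.

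Calls at the 369 genes of 11 lists for endoderm, neighbouring lineages and signalling pathways were near the shares over all peaks. Of these genes, 137 had a peak 1 to 3 kb away, 183 peaks in all. Of the 182 tested, 6 were lower (3.30%, 1.52 to 7.0) and 1 was higher (0.549%, 0.0971 to 3.05), where the shares over all peaks were 3.79% and 1.47%. The median log2 fold change over the 183 was -0.34, against -0.18 over all peaks. At an unadjusted p below 0.05, 29 were lower and 9 higher, where 19.7% of all peaks passed in either direction.

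Definitive endoderm and anterior genes held 25 peaks with a median log2 fold change of -0.83, of which 3 were lower (Krt18, Ldb1 and Frzb) and 1 was higher (Tle1). The lower share was 12% (4.17 to 29.96), an interval above the 3.79% over all peaks, though it rests on 3 peaks. The higher share was 4% (0.71 to 19.54), an interval that holds the 1.47% over all peaks. At Ldb1, a cofactor of LIM-domain factors, the peak lay in an intron, 1216 bases upstream of a start site. It was at least 4.72-fold lower in dTAG13 (adjusted p = 0.0334 per the authors' deposited table). The peak near Frzb, which encodes a secreted WNT antagonist, fell from a fitted 15.0 to 3.06 (-2.30 ± 0.74 on the log2 scale, SE, and adjusted p = 0.0409 per the authors' deposited table). That call was lost with the median of all peaks moved to 0 (adjusted p = 0.0607) and with GC groups centred (adjusted p = 0.117). The Tle1 peak, in a gene for a Groucho corepressor, was at least 1.54-fold higher, at a fitted 4.63 in dTAG13.

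Several peaks at endoderm genes were not called. At an unadjusted p below 0.05, 9 of the 25 peaks were lower and 2 higher, called ones included. Over all peaks, 19.7% passed this threshold in either direction. The uncalled peaks named here fall outside the naming rule and are not all of them. A weak peak at Ssbp3 stood at -4.05 ± 1.46 (SE) on the log2 scale (adjusted p = 0.0754 per the authors' deposited table). Its fitted dTAG13 level, 0.43, was below the floor. At Cer1, which encodes an inhibitor of Nodal, BMP and WNT secreted by anterior endoderm, a peak 1031 bases upstream had fitted levels of 6.97 in DMSO and 19.0 in dTAG13 (1.45 ± 0.52 on the log2 scale, SE, and adjusted p = 0.0780 per the authors' deposited table). The peak at Hhex, a homeobox gene of anterior endoderm, had 15.6 and 5.88 (adjusted p = 0.142). The peak at Gata4, a zinc finger factor of endoderm and heart, had 13.4 and 5.07 (adjusted p = 0.208).

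In the other lists, 1 peak each was lower among 9 tested at pluripotency, 33 at WNT, 13 at Hippo and 16 at retinoic acid genes, the WNT gene being Frzb again. The median log2 fold changes of these lists were -0.45, -0.43, 0.01 and -0.63. The pluripotency gene was Esrrb, an orphan nuclear receptor, where a peak in an intron was at least 2.59-fold lower (7.77 fitted in DMSO). At Rxra, which encodes a retinoid X receptor, the printed peak fell from a fitted 23.5 to 6.90 (-1.77 ± 0.51 on the log2 scale, SE, and adjusted p = 0.0190 per the authors' deposited table). At Wwc1, which encodes the Hippo pathway activator KIBRA, a peak was at least 2.22-fold lower. The authors' test, DESeq2 by its column names, called 0 of the 17 peaks at streak and mesoderm genes, 10 at neural genes, 8 at foregut and liver genes, 27 at Nodal and BMP genes, 27 at FGF genes and 17 tested at Notch genes. At an unadjusted p below 0.05, these lists had 4, 1, 1, 1, 6 and 3 peaks, where the share over all peaks was 19.7%. The median log2 fold changes of these 6 lists, in that order, were -0.53, -0.45, -0.83, -0.12, -0.15 and -0.10.

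Genes seldom had more than 1 called peak in this range. No gene had 3 or more, and 2 genes, Asb4 and Gm44863, singled out after their values were seen, had 2, all lower. At Asb4, which encodes a subunit of a ubiquitin ligase, peaks 1686 bases downstream and 2614 bases upstream were at least 3.87-fold and at least 1.76-fold lower. The upstream call was lost with the median of all peaks moved to 0 (adjusted p = 0.0551) and the downstream one with GC groups centred (adjusted p = 0.0664). At Gm44863 the stronger peak fell from a fitted 34.6 to 7.98. The weaker one was at least 3.36-fold lower, and its call was lost with no filter on weak peaks (adjusted p = 0.0506), with the median of all peaks moved to 0 (adjusted p = 0.0612) and with GC groups centred (adjusted p = 0.0632). The 6 peaks of Gm21738 and the 6 of Plekha7 held no call.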

How the data were processed

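ATAC-seq was made from 6 libraries (3 DMSO, 3 dTAG13). Per the submitters' processing notes, build mm10 and fastp, Bowtie2, MACS2, featureCounts, HOMER 4.11 and ChIPseeker were used, and settings are not given in the sources used here. The deposited signal per peak is the mean over the libraries of counts normalized by the authors. The log2 fold change and its standard error were taken as the authors deposited them. The score deposited by the authors was checked to be the ratio of these values, to within 8.72e-07. The p-value and adjusted p-value are those deposited by the authors, with column names of DESeq2, and no count test was run here because values per library were not used. Depth per library is unknown.

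Peaks were taken by the authors' annotation. The members, the gene lists and the motifs were chosen with earlier results of these data known. Group levels were fitted from the mean and fold change, assuming libraries of equal weight, with a floor of 3 normalized counts. Peaks with a mean of up to 1.87 had no adjusted p. Distances, exons and introns came from GENCODE M21 and sequences from RefSeq's GRCm38.p6, in which every chromosome was longer than the last peak's end. Wilson intervals at 95% cover counting error over peaks only. Named peaks were the 10 with the smallest adjusted p in each direction, the 3 strongest, every called peak at a listed gene, and genes with 3 or more called peaks. The uncalled peaks named at endoderm genes fall outside this rule. Alternatives changed the filter on weak peaks, the zero point of the fold changes, thresholds, windows, overlaps and annotation. Python 3.11.15 was used with pandas 2.3.3, scipy 1.17.1 and pysam 0.24.0, and the code was tested on simulated data.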

Additional observations from a re-analysis of the deposited data

Results flagged for a closer look

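The deposited table also holds marks per gene, in columns headed DEGdown and DEGup, which none of the comparisons above used. Of the 218 peaks called lower, 14 lay at genes with the first mark (6.42%, Wilson 95% interval 3.86 to 10.5), against 145 of 5516 uncalled peaks (2.63%, 2.24 to 3.09) and 2 of 70 higher peaks. The share among lower peaks was flagged because its interval lies above that of uncalled peaks. Shares of the marks over all peaks were not computed, so the difference cannot be called particular to sites 1 to 3 kb away. The 14 included the peaks at Krt18, Wwc1, Cacna2d3, Tfpi (an inhibitor of coagulation), Car4 (a carbonic anhydrase) and Rfx6 (a transcription factor of gut and pancreatic endocrine cells). At Rfx6 the fitted DMSO level was only 5.41. For the second mark the intervals overlapped, with 3 of 70 higher peaks (4.29%, 1.47 to 11.9), 9 of 218 lower peaks (4.13%) and 158 of 5516 uncalled peaks (2.86%). The expression data behind these marks were not analysed here.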

How the results depend on the processing

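No paired analysis was possible because the deposited table gives 1 mean per peak and no value per library, and for the same reason no library could be left out. The direction of most calls depended on the zero point. With the median of all peaks at 0, 129 peaks were higher and 56.1% of calls were lower, and 117 were dTAG13-enriched. In the 1 to 2 kb class 69 peaks were then higher and in the 2 to 3 kb class 60. With the median of the peaks in both lists at 0, 81.9% of calls were lower. With each GC group centred, chosen after seeing the data, 125 peaks were lower and 195 higher (39.1% lower), and 125 were DMSO-enriched and 173 dTAG13-enriched. The classes then had 77 lower and 108 higher peaks (1 to 2 kb) and 48 lower and 87 higher (2 to 3 kb), and 7.69% of higher peaks held the OTX consensus. At an adjusted p under 0.01, 97 peaks were called, 78 lower and 19 higher (80.4% lower). In the 200-base window 8.10% of uncalled peaks held the consensus. At an overlap of 50% of both peaks, 36.0% were in both lists, 49.4% in the DMSO list alone and 14.3% in the dTAG13 list alone. The cause was not tested for any of these. Of the 37 named calls, 12 of 12 higher and 20 of 25 lower ones held with the median of all peaks at 0, and the same numbers with GC groups centred. Those lost under one or the other were at Frzb, Asb4, Gm44863, Gm11460 and Eva1a. With no filter on weak peaks, 1 call at Gm44863 was lost (adjusted p = 0.0506). The calls rest on few reads, since 139 of 218 lower peaks were at or under 3 normalized counts in dTAG13.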
